A study of Mus musculus with 21 samples.

Results

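Selenoproteins carry selenocysteine, the selenium form of cysteine, and 10 of their genes that are active in liver were followed here: *Gpx1*, *Gpx4*, *Msrb1*, *Dio1*, *Selenop*, *Selenow*, *Selenof*, *Selenok*, *Selenos* and *Selenot*. They were taken by symbol, as the rows of the count table whose Ensembl identifier has one of these names in GENCODE M21 (mouse genome build GRCm38), and all 10 were found among 46078 gene identifiers. The rule uses no measured value, and all 10 passed the filter on low counts that left 14370 genes to test. The 24 selenoprotein genes looked up in the annotation comprised these 10 and 14 others, of which 11 passed the same filter.

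The data were bulk RNA sequencing of liver from 21 male mice that were at least 9 weeks old when the diets began, 1 library per animal as the titles give them. Knockout mice (KO, labelled cse) lacked *Cse*, the gene for cystathionine γ-lyase, which makes cysteine from methionine by way of cystathionine and is named *Cth* in the annotation. The comparison mice are labelled WT, whereas the text of the study describes the partners of the knockouts in this experiment as *Cse*+/- heterozygotes. The knockout was on a mixed 129/C57BL/6 background. Every mouse was on restricted rations of a defined amino acid diet (5CC7), complete (CTR, 3 WT and 4 KO), without cysteine (noCys, 4 WT and 3 KO) or without tryptophan (noTrp, 2 WT and 5 KO). In the depleted diets the other amino acids made up for the one left out. The knockout is of the whole body, and all 6 groups share the restricted ration.

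Library totals ran from 8889951 to 27230852 counted reads. *Cth* checked the labels: it was at 6.34 to 14.99 CPM (counted reads scaled to a common library size) in the KO libraries and at 108 to 452 in the WT libraries. Hepatocyte markers were present at a summed 46850 to 119000 CPM (8 genes, *Alb* and *Ttr* among them), as in liver, and muscle markers stayed at 0 to 2.19 CPM. KO noCys replicate 3 and WT CTR replicate 3 stood at the ends of the scaling factors, 1.14 and 0.883, and the shares of all genes called without them are given beside the comparisons they enter.

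Selenocysteine is written into a protein at UGA, a codon that otherwise ends translation, and the ribosome reads it through with the help of a stem-loop in the tail of the mRNA (the SECIS element), the protein that binds it and a dedicated elongation factor and tRNA. The liver makes and secretes selenoprotein P, which carries selenium to other tissues. Liver selenoproteins remove peroxides, repair oxidized methionine, activate thyroid hormone and serve in the endoplasmic reticulum. Selenoprotein mRNAs are known to differ in how they keep up when selenium runs short: those of *Gpx1* and *Selenow* are among the first to fall, in part through decay of mRNAs with a premature stop, and those of *Gpx4* and *Selenop* are among the last. The values here are mRNA levels, and selenium and protein amounts were not part of the files.

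The codon that defines the family is shown for each gene because its place in the mRNA differs between the members. Each line gives the coding sequence around it 5′ to 3′ on the coding strand, from the GENCODE M21 transcripts (GRCm38), with the selenocysteine codon TGA (UGA in the mRNA) in capitals.
Dio1 (codon at chr4:107297700-107297702, minus strand): ggcagttgcaccTGAccttcatttctt
Gpx1 (codon at chr9:108339451-108339453, plus strand): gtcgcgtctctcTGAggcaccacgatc
Msrb1 (codon at chr17:24740158-24740160, plus strand): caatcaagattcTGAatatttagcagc
Gpx4 (codon at chr10:80054737-80054739, plus strand): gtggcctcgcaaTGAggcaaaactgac
Selenos (codon at chr7:66088844-66088846, plus strand): tcatctggcggcTGAaactaa
Selenop, first codon (codon at chr15:3274848-3274850, plus strand): cttcaagccagcTGAtacttgtgtctt
Selenop, last codon (chr15:3279696-3279698, plus strand): aggaagtgaaaaTGAcattcaaactaa
Selenow (codon at chr7:15920464-15920466, minus strand): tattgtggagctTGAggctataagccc
Selenof (codon at chr3:144590645-144590647, plus strand): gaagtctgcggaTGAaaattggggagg
Selenok (codon at chr14:29973440-29973442, plus strand): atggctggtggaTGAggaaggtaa
Selenot (codon at chr3:58585238-58585240, plus strand): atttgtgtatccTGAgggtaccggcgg
The 2 short lines at *Selenos* and *Selenok* end at the stop codon of the gene, because their selenocysteines are at residue 189 of 190 and residue 92 of 94. In the others the codon lay inside the coding sequence: at residue 13 of 88 in *Selenow*, 47 of 201 in *Gpx1*, 49 of 195 in *Selenot*, 73 of 197 in *Gpx4*, 93 of 162 in *Selenof*, 95 of 116 in *Msrb1* and 126 of 257 in *Dio1*. *Selenop* was alone among the 10 in having more than 1, with 10 codons from residue 59 to residue 377 of 380.

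Where the codon stands relative to the last junction between exons bears on whether a stop there would count as premature. It was 470 bases ahead of that junction in *Selenot*, 357 in *Selenop* (first codon), 342 in *Gpx4*, 303 in *Dio1*, 243 in *Selenow*, 105 in *Gpx1*, 78 in *Selenof*, 34 in *Msrb1* and 5 in *Selenok*. *Selenos* and the other 9 codons of *Selenop* had it in the last exon. The transcript maps show the codon early in the coding sequence of *Selenow*, *Gpx1*, *Selenot* and *Gpx4* and at its end in *Selenos* and *Selenok*. The first codon of *Selenop* is early too.

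**Figure D1:**
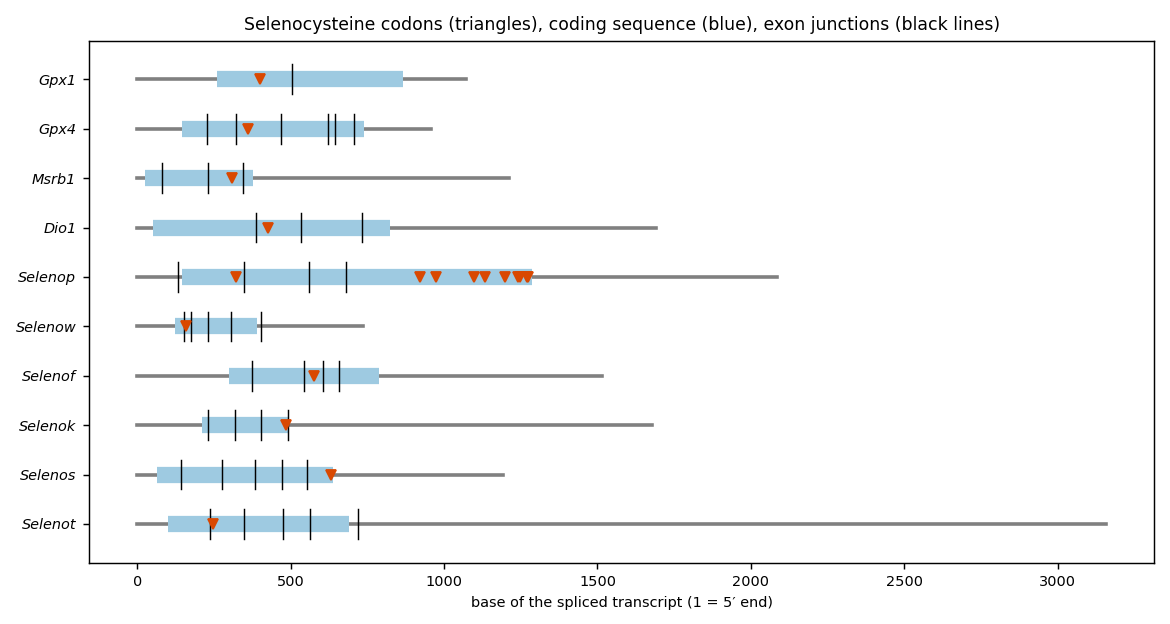
Spliced transcripts of the 10 genes drawn to scale in bases from the 5′ end (x axis), with the coding sequence in blue, exon junctions as black lines and selenocysteine codons as triangles. *Selenop* has 10 triangles, 9 of them in the last exon, and *Selenos* has its codon 1 residue before the end of the protein, in the last exon.

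Their share of ordinary cysteine codons (TGC or TGT) was also unequal. Across 9348 tested genes with a principal coding transcript the median was 1.92% of codons. *Msrb1* (5.17%, 6 of 116), *Gpx4* (5.08%, 10 of 197), *Selenop* (4.74%, 18 of 380), *Selenow* (4.55%, 4 of 88) and *Selenof* (4.32%, 7 of 162) lay above 90.8% to 94.1% of those genes. *Dio1* was at 2.72%, *Gpx1* at 1.99%, *Selenot* at 1.54% and *Selenos* at 1.05%, and *Selenok* had no cysteine codon among 94.

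In level per length, the mean over the 21 libraries was highest for *Selenop*, at 2484 CPM per kilobase of exon, followed by *Gpx1* at 1265 and *Msrb1* at 434. Only 26 of 14318 genes were above *Selenop* on this scale. *Gpx4* (185) and *Selenow* (178) came next and their libraries overlapped, as did those of *Selenos* (63.0) and *Selenok* (57.0). *Selenot* (39.9), *Dio1* (38.3) and *Selenof* (29.7) were lowest, and even *Selenof* was above 89.2% of genes. The ranges over the libraries did not overlap between *Selenop* (2086 to 3394) and *Gpx1* (726 to 1694), between *Gpx1* and *Msrb1* (257 to 550), between *Msrb1* and *Gpx4* (142 to 248), or between *Selenow* (124 to 219) and *Selenos* (49.2 to 79.8). With the longest transcript in place of all exons the first 7 places were the same, and *Selenof* came 8th and *Selenot* 10th.

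*Dio1* was also the member that varied most. Its highest library was 35.4-fold above its lowest, against 1.37-fold (*Selenof*) to 2.33-fold (*Gpx1*) in the other 9. The range of the 6 group means on the log2 scale was 5.67 times the pooled SD within groups for *Dio1*, 5.47 times for *Gpx1* and 4.18 times for *Msrb1*, all with KO noCys as the lowest group. It was 3.85 times for *Selenos* and 3.37 times for *Gpx4*, with KO noCys as the highest group, and 2.61 times or less for the other 5, down to 0.81 for *Selenow*.

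**Figure D2:**
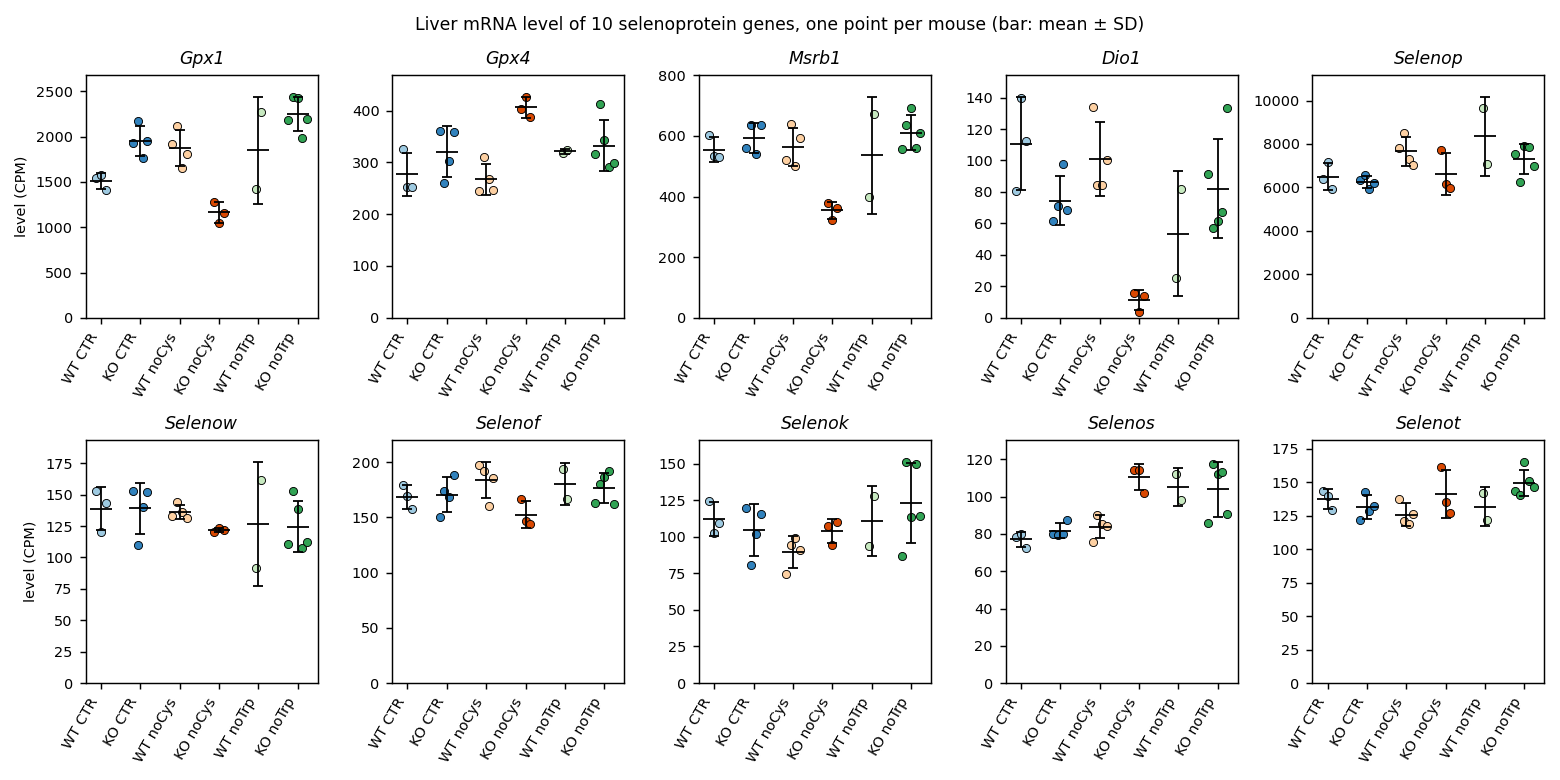
Level in CPM (y axis, from 0) of each gene in the 6 groups (x axis), 1 point per mouse, with the mean as a bar and the SD as whiskers. In *Dio1*, *Gpx1* and *Msrb1* the 3 KO noCys points lie below every other point, and in *Selenos* the 3 KO noCys points lie with the noTrp points, above both CTR groups.

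The design turns on the contrast of KO noCys with WT noCys (the central comparison), since these knockouts could neither eat nor make cysteine. *Dio1*, *Gpx1* and *Msrb1* were lower and *Gpx4* and *Selenos* higher in KO noCys, and the other 5 were not called. The 5 called members of 10 stand beside 28.2% of all genes tested that were called (edgeR quasi-likelihood test, Benjamini-Hochberg adjusted p under 0.05). Without KO noCys replicate 3 the same 5 members were called, beside 16.5% of all genes. The median log2 fold change of the 10 was -0.19, against -0.02 over all genes, and with scaling by library totals alone the medians were 0.02 and 0.20, so the sign of the members' median depends on the scaling. The 5 calls held in all 14 alternatives run for this comparison.

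*Dio1* (ENSMUSG00000034785, chr4:107291465-107307169), the deiodinase that turns thyroxine into active thyroid hormone, changed the most of the 10. It stood at 15.6, 3.96 and 14.1 CPM in KO noCys and at 134, 84.7, 84.2 and 100 in WT noCys. Every other library was higher than the 3 of KO noCys, the nearest being WT noTrp replicate 1 at 25.4. The log2 fold change was -3.21 (SE 0.45, adjusted p = 3.41e-05), a 9.26-fold lower level, and leaving out KO noCys replicate 3 gave -2.77 (adjusted p = 0.000309). These low levels rested on 83 to 220 reads per library, against 752 to 2301 in WT noCys.

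*Gpx1* (ENSMUSG00000063856, chr9:108338903-108340343), the abundant glutathione peroxidase of the cytosol, stood at 1281, 1047 and 1159 CPM in KO noCys and at 1919, 2123, 1649 and 1813 in WT noCys. The groups did not overlap, and the 3 KO noCys libraries were again below every other library, of which the lowest was at 1413. The log2 fold change was -0.69 (SE 0.14, adjusted p = 0.000998), a level 1.61-fold lower.

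*Msrb1* (ENSMUSG00000075705, chr17:24736642-24742778), which reduces oxidized methionine in proteins, fell by nearly the same factor. It stood at 378, 323 and 362 CPM in KO noCys and at 522, 638, 501 and 594 in WT noCys, without overlap. Its log2 fold change was -0.67 (SE 0.14, adjusted p = 0.00172), and the lowest library outside KO noCys was WT noTrp replicate 1 at 399.8 CPM.

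*Gpx4* (ENSMUSG00000075706, chr10:80047166-80056439), the peroxidase that acts on lipid hydroperoxides in membranes and holds off ferroptosis, moved the other way. It stood at 404, 427 and 388 CPM in KO noCys and at 245, 309.7, 267 and 248 in WT noCys. The log2 fold change was 0.60 (SE 0.14, adjusted p = 0.00256), 1.52-fold higher, and it was 0.82 with library totals alone. *Gpx4* has a named pseudogene, *Gpx4-ps2*, and reads of the pair cannot be told apart with certainty.

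*Selenos* (ENSMUSG00000075701, chr7:66079649-66089405), a membrane protein of the endoplasmic reticulum that takes part in the export of misfolded proteins, stood at 114.4, 114.5 and 102 CPM in KO noCys and at 75.8, 90.4, 85.2 and 84.1 in WT noCys. It was 1.32-fold higher, or 0.40 on the log2 scale (SE 0.11, adjusted p = 0.0087). The call was closest to the threshold without KO noCys replicate 3 (0.37, adjusted p = 0.0443), and the value was 0.61 with library totals alone.

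The 5 members that were not called had log2 fold changes of -0.27 to 0.21. *Selenof*, a protein of the endoplasmic reticulum that works with a glycoprotein folding sensor, was at -0.27 (SE 0.10, adjusted p = 0.0561) and was called by DESeq2 and by limma-voom. *Selenop*, the plasma carrier of selenium, was at 7708, 6149 and 5980 CPM in KO noCys and at 7815, 8506, 7295 and 7011 in WT noCys, a log2 difference of -0.21 (SE 0.13, adjusted p = 0.233), and limma-voom called it (-0.28, adjusted p = 0.0386). *Selenow*, a small cytosolic protein, did not overlap between the groups, at 120 to 123 against 131 to 144 CPM, yet the difference was only -0.16 (SE 0.16, adjusted p = 0.488). *Selenok* (0.21, SE 0.17, adjusted p = 0.374) and *Selenot* (0.16, SE 0.10, adjusted p = 0.212), both of the endoplasmic reticulum, lay on the higher side, and *Selenot* was called with library totals alone (0.37, adjusted p = 0.00917). *Selenop* overlaps the opposite-strand gene *Ccdc152*, *Selenof* a small nucleolar RNA gene, and *Selenok* and *Selenot* have named pseudogenes, and the strand setting of the counting is not given in the sources used here.

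Set beside these calls, the selenocysteine codon of the 3 that fell was 303, 105 and 34 bases ahead of the last junction (*Dio1*, *Gpx1* and *Msrb1*). Of the pair that rose, *Gpx4* had it 342 bases ahead and *Selenos* in the last exon. The uncalled *Selenot*, *Selenop* (first codon), *Selenow*, *Selenof* and *Selenok* had it 470, 357, 243, 78 and 5 bases ahead. Cysteine codons made up 2.72%, 1.99% and 5.17% in the 3 that fell, 5.08% and 1.05% in the pair that rose and 0% to 4.74% in the uncalled 5. The part of the codon's place or of cysteine codons in the changes was not tested.

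**Figure D3:**
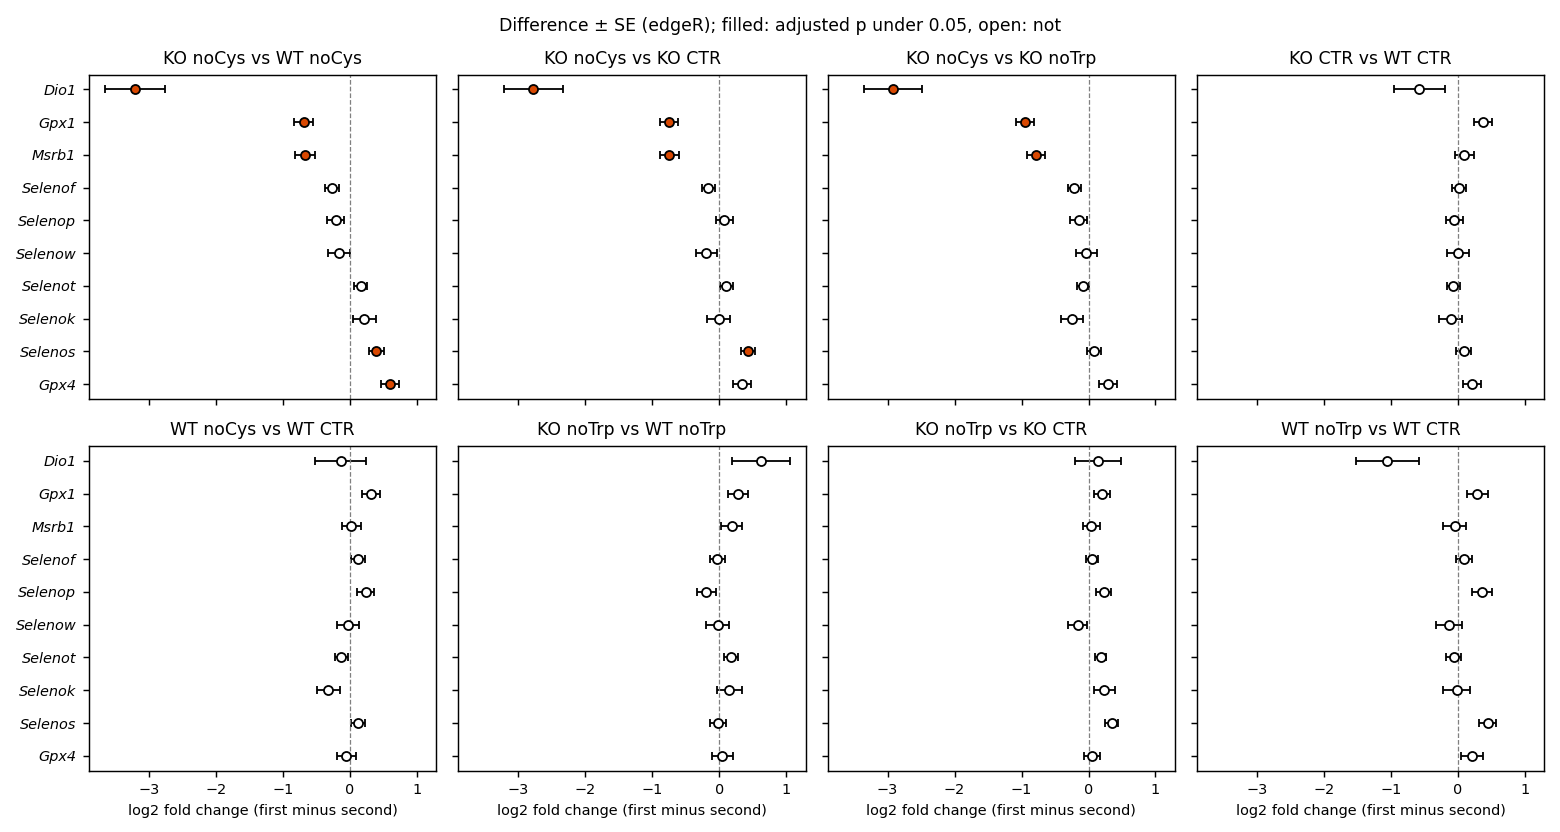
Log2 fold change of the 10 genes (x axis, first group minus second, whiskers ± SE) in the 8 comparisons of 2 groups, with filled points for an adjusted p under 0.05. Filled points appear only in the 3 comparisons that hold KO noCys, where *Dio1*, *Gpx1* and *Msrb1* are always lower, and the lowest is *Dio1* at -3.21.

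Markers of several cell types moved with the same contrast. Hepatocyte markers summed to 46850 to 76890 CPM in KO noCys, 104500 to 119000 in WT noCys, 81810 to 92520 in KO CTR, 86200 to 102000 in WT CTR, 69000 to 92500 in KO noTrp and 73290 to 103800 in WT noTrp, with 5 of 8 called lower in KO noCys than in WT noCys and none at 0. In that contrast 2 of 5 cholangiocyte markers (16.1 to 18.1 CPM against 34.2 to 57.8), 3 of 5 erythroid (128 to 157 against 183 to 374), 2 of 5 endothelial (85.5 to 93.6 against 97.1 to 142), 1 of 6 stellate and fibroblast (199 to 227 against 209 to 333) and 1 of 8 Kupffer cell and leukocyte markers (126 to 155 against 160 to 246) were called lower, and none was called higher. Adipocyte markers summed to 7.20 to 8.93 CPM against 12.4 to 17.0, with 3 of 4 at 0 in KO noCys and the 1 tested, *Fabp4*, called lower (-0.81, adjusted p = 0.00896), and pancreas markers to 13.4 to 17.2 against 12.5 to 17.1, with 3 of 4 at 0 in both. The part of these shifts in the members' values was not tested, and in bulk tissue fewer cells of a type and less RNA per cell cannot be told apart.

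Within the knockouts, removing cysteine was compared with the complete diet. The same 3 genes were lower and *Selenos* higher, which makes 4 called members beside 20.2% of all genes tested (without KO noCys replicate 3, the same 4 beside 9.65%). In this contrast 4 of 8 hepatocyte, 3 of 5 erythroid (128 to 157 CPM against 179 to 338), 2 of 6 stellate and fibroblast, 1 of 5 endothelial and 1 of 5 cholangiocyte markers were called lower and none higher, and their part in the members' values was not tested. *Dio1* went from 61.3, 71.2, 97.5 and 68.3 CPM in KO CTR to the KO noCys levels given above, a log2 difference of -2.77 (SE 0.44, adjusted p = 0.000202), or -2.33 without KO noCys replicate 3. *Gpx1*, at 1936, 2174, 1768 and 1949 CPM in KO CTR, changed by -0.75 (SE 0.14, adjusted p = 0.000788), and *Msrb1*, at 561, 634, 540 and 637 CPM, by -0.74 (SE 0.14, adjusted p = 0.00115). None of the 3 overlapped between the groups.

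*Selenos* was at 80.2, 79.3, 80.2 and 87.6 CPM in KO CTR, 0.43 lower on the log2 scale than in KO noCys (SE 0.11, adjusted p = 0.007). *Gpx4* was at 361, 260, 303 and 359 CPM in KO CTR, below each KO noCys library, but the difference of 0.34 (SE 0.14, adjusted p = 0.0834) was not called except with library totals alone (0.47, adjusted p = 0.0257). The median of the 10 was -0.08, against 0.00 for all genes, and 0.04 against 0.13 with library totals alone. The KO noCys libraries enter both this and the central comparison, so the pair are not independent.

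Tryptophan removal was included to set the loss of cysteine beside the loss of another essential amino acid. Between KO noCys and KO noTrp 3 members were called, all lower without cysteine, beside 13.9% of all genes (without KO noCys replicate 3, the same 3 beside 3.99%). Markers of other cell types were lower in the same contrast, with 3 of 8 Kupffer cell and leukocyte markers (summed 126 to 155 CPM in KO noCys and 199 to 347 in KO noTrp), 3 of 5 endothelial (85.5 to 93.6 and 112 to 150), 1 of 5 cholangiocyte (16.1 to 18.1 and 25.6 to 48.4), the 1 adipocyte marker tested (the 4 summing to 7.20 to 8.93 and 9.39 to 18.6) and 2 of 8 hepatocyte markers called lower and none of these higher. Their part in the members' values was not tested. *Gpx1*, at 2189, 2441, 2430, 1989 and 2194 CPM in KO noTrp, differed by -0.95 (SE 0.13, adjusted p = 0.000142). *Dio1*, at 91.7, 56.9, 61.8, 67.3 and 133 CPM, differed by -2.92 (SE 0.43, adjusted p = 0.000218), or -2.47 without KO noCys replicate 3, and *Msrb1*, at 555, 638, 693, 559 and 608 CPM, by -0.79 (SE 0.14, adjusted p = 0.00106).

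*Selenos* did not part these depleted diets in the knockouts. It was at 85.7, 118, 112, 113 and 90.8 CPM in KO noTrp, and the difference was 0.09 (SE 0.10, adjusted p = 0.614). *Gpx4* was at 292 to 413 CPM in KO noTrp, overlapping KO noCys, and differed by 0.29 (SE 0.13, adjusted p = 0.142). The median over the members was -0.18, against 0.01 over all genes.

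In the remaining comparisons of 2 groups edgeR called no member. On the complete diet, KO against WT called 0.32% of all genes (0.0698% without WT CTR replicate 3). Among the members 1 had an unadjusted p under 0.05, beside 9.59% of all genes, and DESeq2 and limma-voom called 0. That 1 was *Gpx1*, at 1539, 1577 and 1413 CPM in WT CTR and 1.30-fold higher in KO CTR without overlap (0.37, SE 0.14, adjusted p = 0.34). *Dio1* was at 80.4, 140 and 112 CPM in WT CTR and overlapped KO CTR (-0.57, SE 0.38, adjusted p = 0.677).

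Removing cysteine from WT mice, which can still make it, called 0.661% of all genes (1 gene without WT CTR replicate 3). Among the members 1 had an unadjusted p under 0.05, beside 13.9% of all genes, and the other tools called 0. *Gpx1* was again that 1, at a log2 difference of 0.31 (SE 0.14, adjusted p = 0.306) and no overlap. *Dio1* (-0.13, SE 0.38), *Msrb1* (0.02, SE 0.14) and *Gpx4* (-0.05, SE 0.14) stayed within the spread of the libraries. *Selenok* was at 74.2 to 99.2 CPM in WT noCys, below the 102 to 125 of WT CTR, a difference of -0.32 (SE 0.17, adjusted p = 0.416).

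Without tryptophan, KO against WT called 0.195% of all genes, no member had an unadjusted p under 0.05, beside 8.91% of all genes, and DESeq2 and limma-voom called 0. WT noTrp held 2 libraries that stood far apart, with *Gpx1* at 1427 and 2268 CPM, *Msrb1* at 399.8 and 673, *Dio1* at 25.4 and 81.6 and *Selenow* at 91.5 and 162. The SEs in this contrast were 0.11 to 0.44.

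Removing tryptophan called 1.87% of all genes in KO and 3.19% in WT (1.02% without WT CTR replicate 3). In KO 2 members had an unadjusted p under 0.05, *Selenos* and *Selenot*, beside 16.9% of all genes, and DESeq2 and limma-voom each called 1, *Selenos*, beside 4.42% and 4.24%. *Selenos* differed by 0.35 (SE 0.09, adjusted p = 0.0621) in KO and by 0.45 (SE 0.13, adjusted p = 0.0572) in WT, where it was at 112 and 98.0 CPM without tryptophan and at 78.5, 79.9 and 72.7 on the complete diet. In WT 3 members had an unadjusted p under 0.05, beside 18.2% of all genes: *Selenos*, *Selenop* (0.36, SE 0.15, adjusted p = 0.209) and *Dio1* (-1.05, SE 0.47, adjusted p = 0.243), and DESeq2 called 1, *Selenos*, beside 6.87%, and limma-voom 0, beside 0.223%. Leaving out WT noTrp replicate 2, with the 1 library that remained assumed to vary like the other groups, gave -2.12 for *Dio1* (adjusted p = 0.043) and 0.55 for *Selenos* (adjusted p = 0.048), whereas leaving out WT noTrp replicate 1 gave -0.44 for *Dio1* (adjusted p = 0.753). Markers that moved with tryptophan removal were *Ttr* of hepatocytes, lower in KO and WT (-0.46 and -0.52), *Clec4f* of Kupffer cells, higher in KO (0.86), and in WT *Lyve1* of endothelium, higher (1.40), and *Reln* and *Alas2* of the stellate and erythroid lists, lower (-0.84 and -0.78). Kupffer cell and leukocyte markers, of which 1 of 8 was called in KO and 0 in WT, summed to 199 to 347 CPM in KO noTrp and 120 to 228 in KO CTR, and to 255 to 292 in WT noTrp and 135 to 210 in WT CTR. Their part in the members' values was not tested.

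A test of the difference between effects was run for both questions. Cysteine removal gave a lower value in KO than in WT for 3 members, beside 7.44% of all genes called in this test: *Gpx1* by a difference of -1.06 (SE 0.19, adjusted p = 0.00296), *Dio1* by -2.64 (SE 0.58, adjusted p = 0.009) and *Msrb1* by -0.77 (SE 0.20, adjusted p = 0.0248). Without KO noCys replicate 3 it was 2 members, *Gpx1* and *Dio1*, beside 3.01%, and without WT CTR replicate 3 the same 2 beside 5.45%. The effect of genotype was lower without cysteine than without tryptophan for the same 3, beside 6.35% of all genes: *Gpx1* by -0.97 (SE 0.21, adjusted p = 0.00757), *Dio1* by -3.83 (SE 0.64, adjusted p = 0.00131) and *Msrb1* by -0.86 (SE 0.21, adjusted p = 0.0195). Without KO noCys replicate 3 it was again *Gpx1* and *Dio1*, beside 2.91%. In the first test 3 of 8 hepatocyte markers (*Ttr*, *Serpina1c* and *Pck1*), 2 of 5 erythroid (*Hba-a2* and *Hbb-bt*) and 1 of 5 cholangiocyte markers (*Spp1*) were called lower too, by -0.87 to -1.99, and in the second 2 hepatocyte markers, *Ttr* (-0.99) and *Serpina1c* (-1.52). None was called higher in either test, and their part in the members' values was not tested.

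The calls of *Dio1* held in every alternative of both tests, but its value in the second moved to -3.22 without WT noTrp replicate 1 and to -4.91 without WT noTrp replicate 2. That of *Msrb1* in the first did not hold with library totals alone (-0.62, adjusted p = 0.0973) or with WT CTR replicate 2 or 3, WT noCys replicate 2 or KO noCys replicate 3 left out (-0.74, -0.74, -0.71 and -0.70, adjusted p = 0.0587, 0.0585, 0.0527 and 0.0839). In the second, *Gpx1* (-0.68, adjusted p = 0.0575) and *Msrb1* (-0.53, adjusted p = 0.132) were not called without WT noTrp replicate 1. *Gpx4* (0.39, adjusted p = 0.23, and 0.55, adjusted p = 0.107) and *Selenos* (0.31, adjusted p = 0.223, and 0.41, adjusted p = 0.127) were called in neither test with all libraries and TMM scaling. In the second, library totals alone called both higher, *Gpx4* at 0.75 (adjusted p = 0.0354) and *Selenos* at 0.60 (adjusted p = 0.0387), and *Gpx4* was also called without KO noTrp replicate 2 (0.64, adjusted p = 0.0441). With library totals alone this test thus had 2 members lower, *Gpx1* and *Dio1*, and 2 higher.

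The other selenoprotein genes gave a wider view. Of the 14 listed, 11 passed the filter, and *Gpx2*, *Dio2* and *Selenov* did not. In KO noCys against WT noCys 5 of the 11 were called lower and 0 higher, beside 28.2% of all genes called, with a median of -0.35 against -0.02 for all genes. With library totals alone 3 were called lower and 2 higher, with a median of -0.14 against 0.20: *Selenoh* (-0.40, adjusted p = 0.0563) and *Selenoi* (-0.14, adjusted p = 0.489) were no longer called, and *Sephs2* (0.65) and *Txnrd1* (0.43) were called higher. *Txnrd2*, the thioredoxin reductase of mitochondria, was at -0.60 (adjusted p = 8.66e-05), *Txnrd3*, a relative found mostly in testis, at -1.04 (adjusted p = 0.000294), *Selenoh*, a nucleolar protein, at -0.62 (adjusted p = 0.00291), and *Selenon*, of the endoplasmic reticulum, at -1.07 (adjusted p = 0.0119).

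Against KO CTR 4 were called lower in KO noCys and, leaving out *Dio3*, 1 higher, beside 20.2% of all genes, and 2 lower and 2 higher with library totals alone. *Txnrd3* (-0.98, adjusted p = 0.000753), *Selenon* (-1.14, adjusted p = 0.0104), *Selenoi*, an enzyme of phospholipid synthesis (-0.47, adjusted p = 0.0127), and *Txnrd2* (-0.32, adjusted p = 0.0173) fell, the calls of *Selenoi* and *Txnrd2* being lost with library totals alone (adjusted p = 0.0963 and 0.177). *Selenoi* was also lower in WT noTrp than in WT CTR (-0.65, adjusted p = 0.0253). The 1 higher gene, named after its value was seen, was *Sephs2*, which makes the selenium donor for selenocysteine and is a selenoprotein itself (0.57, adjusted p = 0.019). The thyroid hormone inactivating *Dio3* had 8, 4 and 8 reads in KO noCys and 0, 4, 0 and 1 in KO CTR, and it passed the filter on low counts through 1 library of KO noCys and 1 of KO noTrp, so its difference is not counted as a result and no fold is given. Against KO noTrp *Txnrd3* (-0.65, adjusted p = 0.016) and *Selenon* (-1.28, adjusted p = 0.00613) were lower, beside 13.9% of all genes called. The difference between KO and WT in the effect of cysteine removal was called for *Txnrd2* (-0.52, adjusted p = 0.0183) and *Txnrd3* (-0.92, adjusted p = 0.0282), beside 7.44% of all genes. With library totals alone *Txnrd3* against KO noTrp (-0.57, adjusted p = 0.0564) and both of these differences (-0.36 and -0.76, adjusted p = 0.117 and 0.0966) were not called.

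**Figure D4:**
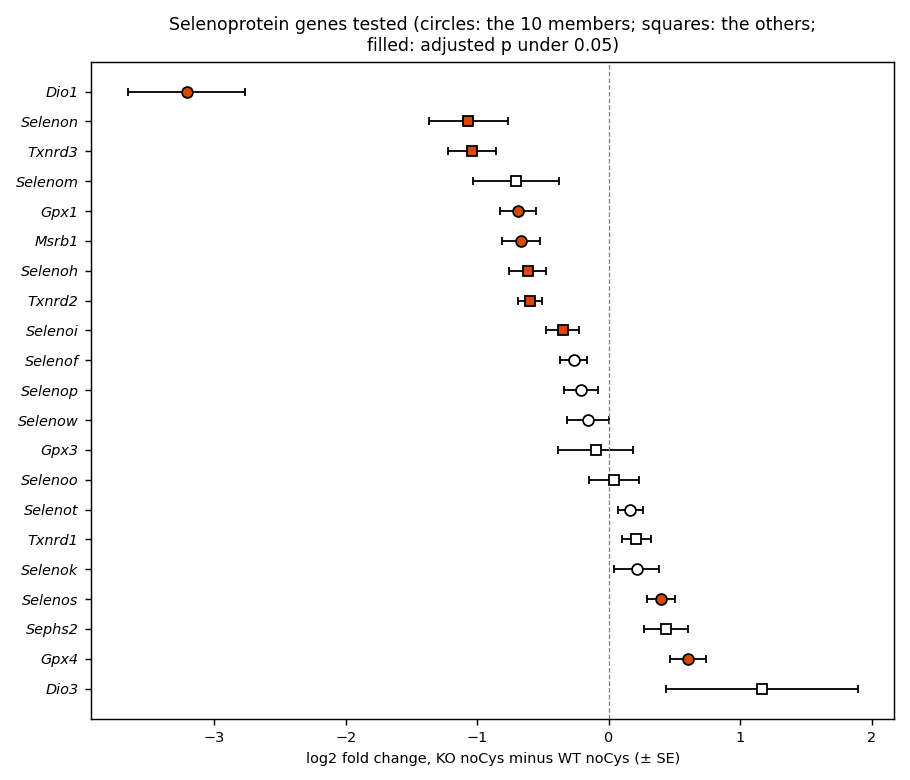
Log2 fold change with SE (x axis) of the 21 selenoprotein genes tested in KO noCys against WT noCys, ordered by value, with circles for the 10 members, squares for the other 11 and filled symbols for an adjusted p under 0.05. Of the filled symbols 8 lie below 0, from *Dio1* at -3.21 to *Selenoi* at -0.35, and 2 above, *Selenos* at 0.40 and *Gpx4* at 0.60.

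Genes for making and inserting selenocysteine were 12 in number, all tested, and in the central comparison 6 were called higher and 0 lower (median 0.29), beside 28.2% of all genes called, and 9 higher and 0 lower with library totals alone (median 0.51 against 0.20 for all genes). The 4 with the smallest adjusted p also serve all protein synthesis or RNA handling: *Sars*, which charges serine and selenocysteine tRNAs with serine (1.5, adjusted p = 7.16e-08), the ribosomal protein gene *Rpl30* (0.51, adjusted p = 0.00129), nucleolin *Ncl* (0.45, adjusted p = 0.00219) and the exon junction protein gene *Eif4a3* (0.42, adjusted p = 0.00406). The other 2, named after their values were seen, were the selenocysteine elongation factor *Eefsec* (0.47, adjusted p = 0.00737) and the SECIS binding protein gene *Secisbp2* (0.37, adjusted p = 0.0291). The counts called higher were 4 against KO CTR (20.2% of all genes called), 5 against KO noTrp (13.9%), 1 for the difference in cysteine removal (7.44%) and 4 for the difference between the depleted diets (6.35%), or 7, 6, 5 and 4 with library totals alone, with *Sars* in each (1.34, 1.08, 1.25 and 1.31) and 0 lower. In WT without tryptophan *Rpl30* was called higher (0.48, adjusted p = 0.0406).

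Of the genes for taking up selenium and releasing it, the receptors *Lrp8* and *Lrp2* did not pass the filter, and *Scly*, which frees selenium from selenocysteine, was at 0.19 in the central comparison (adjusted p = 0.247) and was called with library totals alone (0.40, adjusted p = 0.0297). *Selenbp1* and *Selenbp2* bind selenium but hold no selenocysteine: *Selenbp1* did not pass the test (-0.18, adjusted p = 0.331), whereas *Selenbp2* was far lower in KO noCys (-5.10, adjusted p = 0.000729), and the pair are near copies whose reads may be shared. Of 6 homologues with cysteine in place of selenocysteine, 5 were tested and 2 called lower, beside 28.2% of all genes, *Msrb3* (-1.04, adjusted p = 0.000907) and *Msrb2* (-0.47, adjusted p = 0.00702), which act on oxidized methionine like *Msrb1*. With library totals alone *Msrb2* was not called there (-0.25, adjusted p = 0.165). *Msrb2* was also lower in both depleted KO groups than in KO CTR (-0.71, adjusted p = 0.000383, without cysteine and -0.59, adjusted p = 0.00482, without tryptophan). *Msrb3* was not called in KO noCys against KO CTR (-0.31, adjusted p = 0.305). The difference between KO and WT in the effect of cysteine removal was not called for it either (-0.37, adjusted p = 0.461).

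Among 8 other enzymes of peroxide removal and methionine repair 5 were called lower in KO noCys than in WT noCys and 0 higher (median -0.32), beside 28.2% of all genes called. They included the peroxiredoxins *Prdx4* (-0.69, adjusted p = 0.000335), *Prdx2* (-0.46, adjusted p = 0.0079) and *Prdx6* (-0.35, adjusted p = 0.00986) and *Msra*, the partner of *Msrb1* in methionine repair (-0.29, adjusted p = 0.0148). Of the 5, all but *Prdx4* lost the call with library totals alone and *Prdx3* was then called higher (0.49, adjusted p = 0.00284), so that the list had 1 lower and 1 higher (median -0.11). Against KO CTR 5 of the 8 were lower and 0 higher, beside 20.2% of all genes, and 3 lower and 1 higher with library totals alone. These were not the same 5, since *Prdx4* was not called there (-0.27, adjusted p = 0.114).

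Around *Dio1*, the thyroid hormone receptors *Thrb* (-0.49, adjusted p = 0.00292) and *Thra* (-0.70, adjusted p = 0.00711) were lower in KO noCys than in WT noCys, and none of the genes of thyroid hormone action listed was called higher in this comparison by edgeR. With library totals alone neither receptor was called (-0.28, adjusted p = 0.0501, and -0.47, adjusted p = 0.0756). *Thra* was lower against KO CTR too (-0.98, adjusted p = 0.000797). Against KO noTrp *Me1*, malic enzyme, was higher in KO noCys (1.05, adjusted p = 0.0132). *Me1* was lower in KO noTrp than in KO CTR (-1.02, adjusted p = 0.0398). In KO noCys against KO CTR it was not called (0.03, adjusted p = 0.958).

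Around *Selenos*, *Selenok* and *Selenof*, 5 of 11 partners in the endoplasmic reticulum rose and 0 fell in KO noCys relative to WT noCys (median 0.29), beside 28.2% of all genes called, and 8 rose and 0 fell with library totals alone (median 0.50). *Derl1* (0.84, adjusted p = 7.35e-06), *Syvn1* (1.06, adjusted p = 0.00112) and *Derl3* (2.90, adjusted p = 0.00309) take misfolded proteins out for degradation, and *Zdhhc6* (0.36, adjusted p = 0.00659) attaches palmitate together with *Selenok*. *Derl3* was also higher in KO noTrp than in KO CTR (3.17, adjusted p = 0.0138).

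Likeness between genes was described over the 21 libraries and 9032 protein-coding genes by Pearson's r of log2 CPM, with no test, since the libraries share groups and depth. *Msrb1* was most like *Mpst*, mercaptopyruvate sulfurtransferase of cysteine breakdown (0.959), and had *Gpx1* in second place (0.897). *Gpx1* had *Aldh4a1* of proline breakdown first (0.926) and *Msrb1* second, and *Dio1* had *Anpep*, aminopeptidase N (0.932), *Ypel5* and *Cyp2c23*. *Gpx4* stood with the ribosomal protein genes *Rpl18* (0.901) and *Rpsa* (0.893), and *Selenos* with *Ehd1* (0.911), *Btf3* (0.897) and *Ddost* (0.864). The first genes of the others were *Rnf130* for *Selenop* (0.876), *Polr2f* for *Selenow* (0.851), *Kdelr2* for *Selenok* (0.844), *Akr1c12* for *Selenof* (0.838) and *Ino80c* for *Selenot* (0.797).

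Among the members themselves *Msrb1* and *Gpx1* were most alike (0.897), followed by *Msrb1* and *Dio1* (0.799), *Selenos* and *Gpx4* (0.687) and *Dio1* and *Gpx1* (0.678). The lowest values were those of *Dio1* with *Gpx4* (-0.734) and with *Selenos* (-0.659).

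Promoters were taken from RefSeq (GRCm38.p6) as 250 bases before to 50 after the start of each gene. They were found for all 10 genes, with 15 promoters in all, and searched on both strands. The antioxidant response core TGACNNNGC was in 12.4% of 32851 promoters and in 1 of these 15, of *Selenok*. The thyroid hormone half-site AGGTCA was in 16.3% and in 2 of the 15, of *Selenos* and *Gpx4*. The amino acid response element TGATGNAA (3.97%), the unfolded protein response element TGACGTGG (0.676%) and the endoplasmic reticulum stress response element (0.119%) matched no member in this window, *Dio1*, *Gpx1* and *Msrb1* included. A TGACGTGG followed by C also holds the antioxidant core.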

How the data were processed

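Read counts per gene were deposited by the authors in a single table, with a column per library. RNA was extracted with TRIzol, poly(A)-selected and sequenced from both ends, and the submitters' processing notes name HISAT2 2.1.0, HTSeq 0.11.0 and GRCm38. The annotation release and strand setting of the counting are not given in the sources used here. Of its columns, 1 matched no sample and was not used.

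Counts were fitted in edgeR 4.0.16 (R 4.3.3) over all 21 libraries in 6 groups, after filterByExpr (minimum count 10, minimum total 15) and TMM scaling, with the two-sided quasi-likelihood test adjusted over 14370 genes. SE is the log2 fold change divided by the square root of F. CPM use the scaled library sizes, with a prior count of 2 on the log scale. Gene names, lengths and codons came from GENCODE M21 (45229 of 46078 identifiers matched). Alternatives were DESeq2 1.42.0 (the study's tool), limma-voom (limma 3.58.1) with quality weights, RLE factors, library totals, no filter, a fit of the compared groups alone, a replicate block, and each library left out in turn. The fit was checked on simulated counts. The members, gene lists and marker lists were chosen with earlier results of these data known. From each list, the genes called are named, at most 4 per comparison by adjusted p, and every gene of lists of up to 3. For each member the 3 genes most like it were ranked among genes with a mean log2 CPM over 2. Some genes are not reported here. Replicates are separate animals by their titles.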

Additional observations from a re-analysis of the deposited data

Results flagged for a closer look

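The effect of cysteine removal differed between the genotypes, by the test of the difference itself, for *Gpx1* (-1.06 on the log2 scale, KO minus WT), *Dio1* (-2.64) and *Msrb1* (-0.77). The effect of genotype differed between the diets without cysteine and without tryptophan, by the same kind of test, for *Gpx1* (-0.97), *Dio1* (-3.83) and *Msrb1* (-0.86).

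Among 30 groups of 4 or 5 libraries that were checked for a library far from the rest, 1 stood out: *Selenos* in KO CTR replicate 4, at 87.6 CPM beside 79.3 to 80.2 in the other 3. Chance gives about 1 in 20 such groups.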

How the results depend on the processing

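Of 1550 values of the 10 members under alternatives, 1522 kept their direction and side of the threshold or were uncalled in both, 10 lost a call and 18 gained one, and no called value reversed. The sign changed in 86, all of them uncalled. The numbers of members called were 0 of 10 with all libraries and 1 by DESeq2 and by limma-voom for KO noTrp against KO CTR (0 to 1 with a library left out), and 1 by DESeq2 and 1 with library totals alone for WT noTrp against WT CTR (0 to 2 with a library left out, 2 without WT noTrp replicate 2). For the difference in genotype effect between the depleted diets they were 1 to 4 with a library left out, 1 without WT noTrp replicate 1. The cause of these changes was not tested. The counts of the gene lists with library totals alone were added after seeing the data. Library totals alone moved the median of all genes in the central comparison from -0.02 to 0.20 and the share of higher calls from 52.5% to 80.0%, and made *Msrb1* uncalled in both tests of a difference (-0.62 and -0.66). *Msrb1* in the second was also uncalled without KO noCys replicate 3 (-0.79, adjusted p = 0.0679). Without KO noCys replicate 3 the count over all genes fell from 4055 to 2358 in the central comparison, from 2906 to 1379 against KO CTR, from 2000 to 570 against KO noTrp and from 1069 to 430 and 912 to 416 in the tests of a difference. With a library left out it was 9 to 53 (46 with all) for KO against WT on the complete diet, lowest without KO CTR replicate 2, 14 to 230 (28) without tryptophan, at the ends without WT noTrp replicate 1 and 2, 1 to 53 (95) for cysteine removal in WT, lowest without WT CTR replicate 3, 105 to 447 (269) for tryptophan removal in KO, at the ends without KO CTR replicate 1 and 2, and 99 to 728 (459) in WT, at the ends without WT noTrp replicate 1 and 2. The titles give the replicates by number only. Correlations between same-numbered libraries were -0.09 to 0.02 in the central comparison. They were 0.13 and 0.35 in the 2 pairs of KO against WT without tryptophan, and -0.36 to -0.07 for tryptophan removal in KO. The fit with the replicate block changed 1 call, that of *Msrb1* for cysteine removal in KO against WT (-0.70, adjusted p = 0.0536). In the central comparison it called 5 members and 3504 genes in all, and 0 of 6 libraries correlated best with their own number.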
